A study of Mus musculus with 6 samples.

Results

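Wnt signalling genes were followed on 6 expression arrays of mouse uterine horn. The genes are the Wnt ligands, the proteins that release them, their frizzled and LRP receptors, the R-spondins with their LGR receptors and ubiquitin ligases, the feedback inhibitor Axin2, and the secreted antagonists of the DKK, SFRP and WIF families. They were chosen by gene symbol alone, from probe sets that the platform annotation assigns to 1 gene, and the probe set with the highest mean intensity over the 6 arrays stood for each gene. This gave 53 genes of the 18193 measured, held by 101 of the 45101 probe sets. All animals were females aged 8 weeks on a mixed strain background, had been ovariectomized and carried the GATA2 f/f genotype, by convention a floxed allele on both chromosomes. No recombinase is named in the labels, and both groups share the genotype, so nothing here compares floxed with wild-type animals. The Oil group (3 arrays) received the carrier and the P4 group (3 arrays) progesterone, with no dose or time given in the labels. The title of the series names binding of the progesterone receptor and GATA2, and these arrays set uteri given the hormone against uteri given oil.

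Wnt ligands are secreted proteins that must be lipidated by Porcn and carried to the cell surface by Wls before they can act. At the receiving cell they bind a frizzled receptor together with Lrp5 or Lrp6 and stabilise beta-catenin, or act through branches that do not use beta-catenin. R-spondins raise the number of receptors at the surface: bound to an LGR receptor they take away the ubiquitin ligases Rnf43 and Znrf3, which would otherwise send frizzled proteins to be degraded. In the mouse uterus Wnt7a is a ligand of the epithelium and Wnt4 and Wnt5a are ligands of the stroma, and the pathway is known for its part in gland formation and in the decidual response of the stroma.

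Upstream sequences of 3 genes that passed the test are shown first, because they differ in the binding letters they hold: Wnt7a and Fzd1, with the largest decrease and the largest increase among them, and Wnt5b, which also fell. They were chosen after their values were seen. Each is the stretch of 250 bases before a RefSeq transcript start (build GRCm38.p6, read 5′ to 3′ on the strand of the gene), and capitals mark a match, on either strand, to 1 of 5 searched motifs. The motifs were ACANNNTGT, the core of the palindrome bound by the progesterone and glucocorticoid receptors, AGATAA and TGATAA, forms of the GATA site, CTTTGAT, a form of the TCF and LEF site, and TATAAA, the TATA box. No motif overlaps another in the sequences below.
Wnt7a, chr6:91411354-91411603, minus strand: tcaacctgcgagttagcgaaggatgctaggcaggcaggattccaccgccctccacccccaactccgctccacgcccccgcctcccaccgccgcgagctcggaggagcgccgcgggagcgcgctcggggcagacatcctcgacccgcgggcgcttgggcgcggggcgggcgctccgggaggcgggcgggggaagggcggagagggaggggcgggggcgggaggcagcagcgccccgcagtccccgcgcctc
Wnt5b, chr6:119467212-119467461, minus strand: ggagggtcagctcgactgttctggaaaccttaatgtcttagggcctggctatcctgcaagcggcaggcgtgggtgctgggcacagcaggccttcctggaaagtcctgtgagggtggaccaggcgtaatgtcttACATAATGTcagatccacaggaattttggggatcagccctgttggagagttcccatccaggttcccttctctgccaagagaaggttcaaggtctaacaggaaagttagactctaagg
Wnt5b, chr6:119449387-119449636, minus strand: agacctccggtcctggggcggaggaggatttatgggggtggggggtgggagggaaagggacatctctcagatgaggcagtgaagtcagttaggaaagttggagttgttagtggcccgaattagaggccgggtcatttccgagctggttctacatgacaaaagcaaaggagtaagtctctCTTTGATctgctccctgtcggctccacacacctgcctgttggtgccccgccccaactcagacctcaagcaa
Fzd1, chr5:4758217-4758466, minus strand: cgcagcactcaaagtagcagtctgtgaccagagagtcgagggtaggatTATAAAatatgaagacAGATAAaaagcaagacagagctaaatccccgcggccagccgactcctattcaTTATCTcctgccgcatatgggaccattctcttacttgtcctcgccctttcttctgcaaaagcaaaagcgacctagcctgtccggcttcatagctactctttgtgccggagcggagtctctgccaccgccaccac

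The Wnt7a stretch is 77.6% G and C, holds 34 CpG dinucleotides and has none of the 5 motifs. Over 38 upstream stretches of 34 genes the median was 66% G and C with 20.5 CpG dinucleotides, against 52.4% and 6 over all 32851 stretches of the table. The Fzd1 stretch, at 51.2% G and C, holds AGATAA on both strands, once each, 186 and 134 bases before the start. Its 1 TATAAA lies 202 bases before the start. Wnt5b has 3 starts in the table. The first of those shown has the palindromic core ACATAATGT 117 bases before it and the second CTTTGAT 71 bases before it, and the start not shown, at 75.2% G and C, has no match. Among the 38 stretches the core ACANNNTGT was found in 5.26% (of Wnt1 and Wnt5b), AGATAA in 7.89% (Fzd1, Sfrp5 and Wnt8b), TGATAA in 2.63% (Wnt2), CTTTGAT in 5.26% (Wnt11 and Wnt5b) and TATAAA in 13.2%. The shares over all stretches of the same length were 5.84%, 9.99%, 7.94%, 3.21% and 12.4% in that order. A match describes letters and no binding was measured on these arrays. Of the 10 genes that passed the test, 7 had an entry in the sequence table, and Fzd6, Lgr5 and Rspo3 are named without one.

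Most Wnt signalling genes that differed after P4 were lower. In limma, 10 of the 53 genes passed an adjusted p of 0.05, which is 18.9% of them, beside 13.1% of all 18193 genes. The frizzled receptors Fzd1 and Fzd6 rose. The ligands Wnt7a and Wnt5b fell, as did the ligand carrier Wls, the receptor Fzd10, the R-spondins Rspo1 and Rspo3, the R-spondin receptor Lgr5 and the ligase Rnf43. Among all genes 6.1% rose and 6.96% fell, against 2 and 8 of the 53 here. The median log2 difference was -0.05 over the 53 genes and -0.01 over all genes. The 3 P4 arrays lay entirely on 1 side of the 3 oil arrays for 21 of the 53 genes (3 higher and 18 lower, 39.6%), and for 31.8% of all genes (14.3% higher and 17.5% lower). The share past the threshold is near that of all genes, and no test set the shares against each other.

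**Figure D1:**
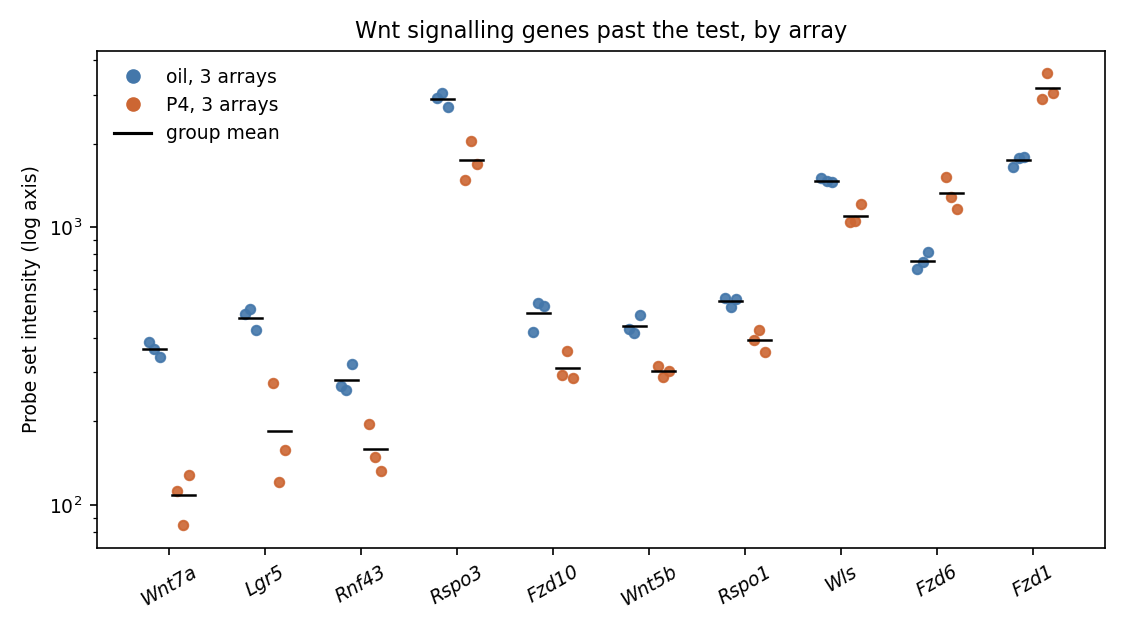
Probe set intensity (log axis) on each of the 6 arrays for the 10 Wnt signalling genes past the test, with oil and P4 arrays as separate points (3 each) and the group mean as a bar. In each of the 10 genes the P4 points lie on 1 side of the oil points, above them for Fzd1 and Fzd6 and below them for the other 8.

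Wnt7a had the largest decrease of these genes past the test. Its intensity was 387, 363 and 342 on the 3 oil arrays and 112, 84.6 and 128 on the 3 P4 arrays. The lowest oil array was well above the highest P4 array, and the log2 difference of P4 minus oil was -1.63 ± 0.14 (SE; limma adjusted p 0.000731). The other probe sets of Wnt7a gave 0.10 and 0.06, with no fall. All differences here are of log2(intensity + 16), a scale that understates changes of dim genes. The uterus holds several cell types, and fewer cells of a type cannot be told apart from less RNA per cell here. Wnt5b, a ligand of the branches that do not use beta-catenin, read 429, 415 and 483 after oil and 317, 289 and 304 after P4. Its groups did not overlap either, with a difference of -0.52 ± 0.09 (limma adjusted p 0.00975). The Wnt5b probe set belongs to a class that can pick up more than 1 transcript (its ID ends in _x_at). The gene's other probe set gave -0.22 and did not pass, so the adjusted p was 0.119 with that class left out.

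The stromal ligands did not pass. Wnt4, needed for the decidual response, had a mean of 902 ± 112 (SD, n = 3) after oil and 958 ± 38.5 after P4, a log2 difference of 0.09 with a 95% interval from -0.15 to 0.33. Wnt5a had 1226 ± 146 and 1383 ± 159, a difference of 0.17 (-0.09 to 0.44). All 4 probe sets of Wnt5a had a positive difference, from 0.07 to 0.28, and none passed over all probe sets. Wnt16 (149, 186 and 129 after oil, 124, 79.96 and 98.2 after P4) and Wnt2 (69.7, 105 and 76 after oil, 61, 52.2 and 52.8 after P4) were lower on every P4 array without passing, with limma adjusted p of 0.0717 and 0.0683. Both passed once the replicate number was entered as a block, at 0.0476 and 0.0463. Wnt16 also passed with P4 replicate 1 left out (0.0343). Of the 19 ligands, 8 had a mean intensity under 100 over the 6 arrays, as did 14 of the 53 genes, and without the block none of the 14 passed. The deposited values carry no detection call, so a level that low cannot be told from background here. Members of the clustered ligand pairs Wnt6 and Wnt10a, Wnt3a and Wnt9a, Wnt3 and Wnt9b, and Wnt1 and Wnt10b, neighbours in the genome, had differences between -0.25 and 0.12 and none passed. Wnt7b, the close relative of Wnt7a, had 169 ± 33.9 after oil and 175 ± 30.4 after P4. Wnt2b, Wnt8a, Wnt8b and Wnt11 had differences from -0.08 to 0.11, the first 3 at mean intensities under 100.

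Of the genes of ligand release, Wls fell and Porcn did not pass. Wls, the carrier, read 1501, 1465 and 1452 after oil and 1042, 1051 and 1214 after P4, a difference of -0.42 ± 0.08 (limma adjusted p 0.0157). The 3 oil arrays lie close together and all P4 arrays lie below them. Of the other Wls probe sets, 2 gave -0.50 and -0.47 and passed the test over all 34945 named probe sets, while the last, at intensities of 22.1 to 33.3, gave -0.21 and did not. Porcn, the acyltransferase, read 463, 492 and 405 after oil and 417, 334 and 286 after P4. The highest P4 array exceeded the lowest oil array, and the difference of -0.39 ± 0.14 had a limma adjusted p of 0.122. It passed with the block (0.0292) and with P4 replicate 1 left out (-0.52, adjusted p 0.0306).

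Frizzled receptors moved in both directions. Fzd1 read 1653, 1777 and 1797 after oil and 2895, 3584 and 3033 after P4, a log2 difference of 0.85 ± 0.09 (limma adjusted p 0.0019). The lowest P4 array was above the highest oil array. Fzd6, a receptor also known from planar polarity, read 705, 748 and 817 after oil and 1522, 1288 and 1162 after P4 (0.79 ± 0.11, limma adjusted p 0.00491). The groups did not overlap. Fzd10 went the other way, from 418, 535 and 519 to 294, 357 and 286 (-0.62 ± 0.13, limma adjusted p 0.0171). For Fzd7 the arrays read 1266, 1352 and 1064 after oil and 736, 1029 and 827 after P4, with no overlap, and the difference of -0.50 ± 0.14 lay just outside the threshold (limma adjusted p 0.0528; 0.0106 with the block). It passed with oil replicate 3 or with P4 replicate 2 left out (0.0443 and 0.0331). It did not pass with scaling to hybridisation controls (limma adjusted p 0.17) or in the mean of its probe sets (0.319). The other Fzd7 probe set gave 0.11. Fzd4, the receptor of Norrin as well as of Wnt proteins, was at -0.30 ± 0.10 (0.0843; 0.0305 with the block) and Fzd2 at 0.27 ± 0.12 (0.209; 0.0325 with the block). The other 4 frizzled genes, Fzd3, Fzd5, Fzd8 and Fzd9, had differences between -0.11 and 0. Of the co-receptors, Lrp6 had 772 ± 27.8 after oil and 665 ± 48.9 after P4 (-0.21 ± 0.08, limma adjusted p 0.145), and Lrp5, at 76.6 and 78, had a difference of 0.02.

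**Figure D2:**
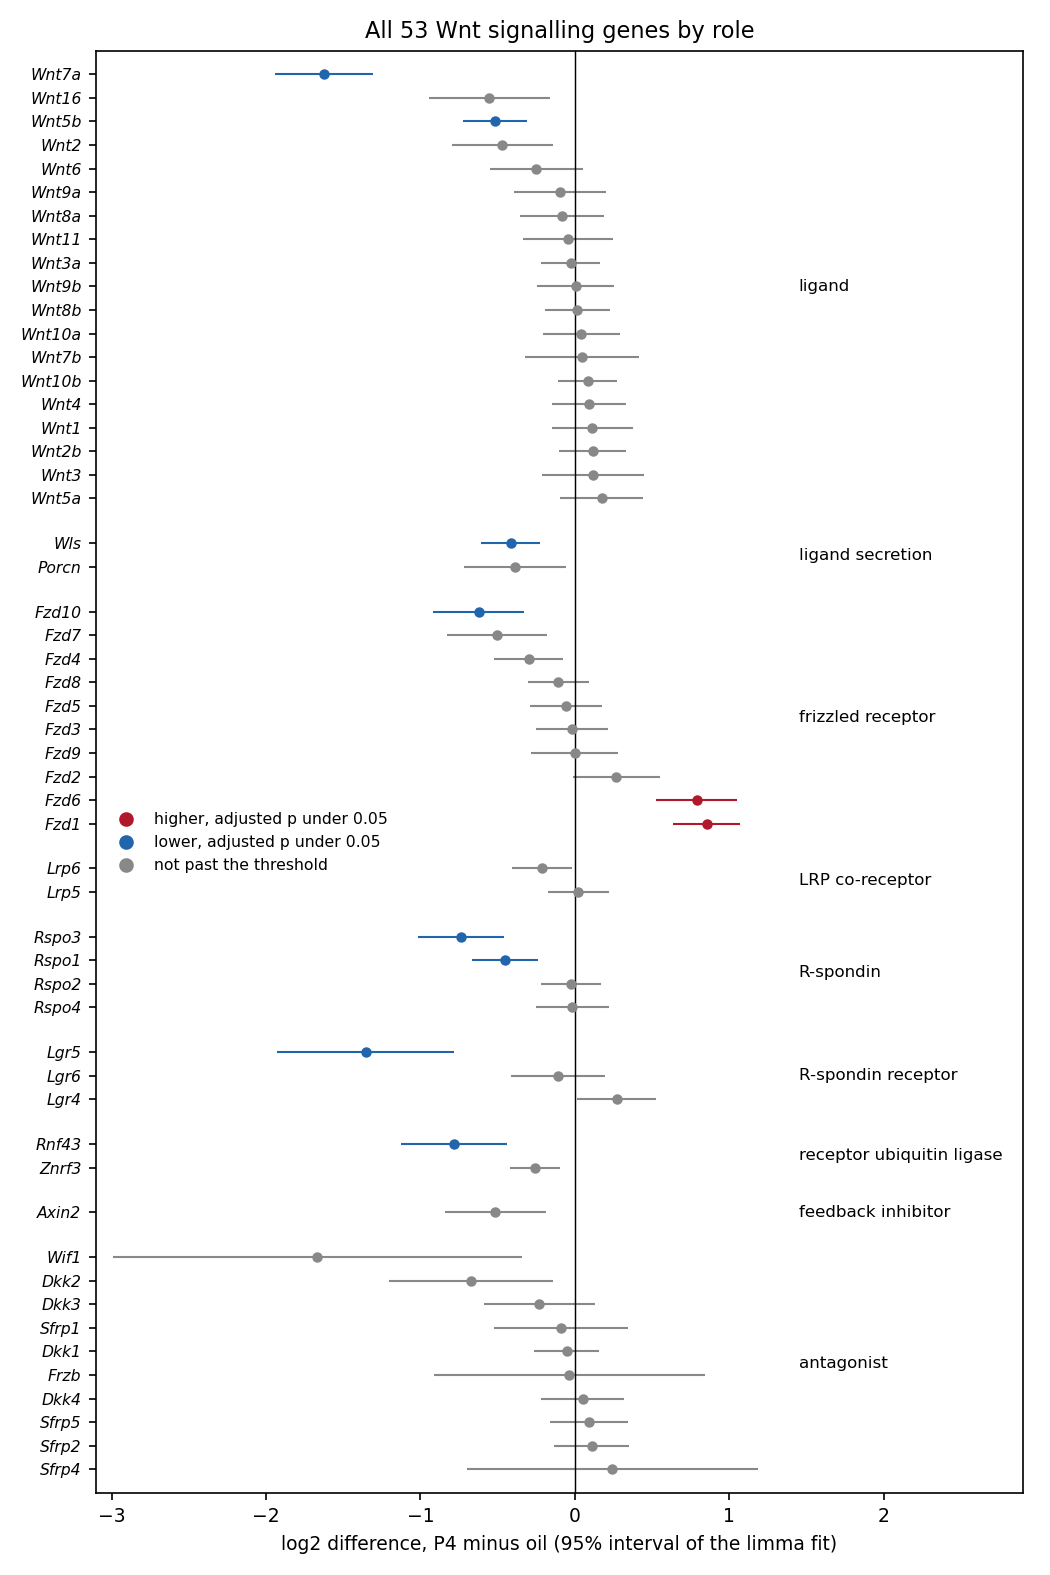
log2 difference of P4 minus oil for all 53 genes, grouped by role, with points for the estimate and lines for the 95% interval of the limma fit over 3 oil and 3 P4 arrays. Coloured points passed the threshold: Fzd1 and Fzd6 to the right of 0, and 8 genes to the left, of which Wnt7a and Lgr5 lie farthest out. Wif1, in grey, reaches as far left with an interval from -2.99 to -0.34.

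Pairs of related receptors and ligands were also compared by the ratio of the 2 genes on the same array, a measure that does not depend on how arrays are scaled apart from the pseudocount. In 11 of 18 pairs the P4 arrays lay entirely on 1 side of the oil arrays, in 7 they overlapped, and no pair passed a test. Several pairs share a gene, so the 11 are not separate results. The share among other gene pairs was not computed, so the count has no background beside it. The pairs given here were chosen after their values were seen, mostly with a gene past the test. Fzd1, Fzd2 and Fzd7 form 1 subfamily. The log2 ratio of Fzd1 to Fzd7 was higher by 1.36 after P4, and that of Fzd1 to Fzd2 by 0.58. The ratio of Fzd6 to its relative Fzd3 was higher by 0.81. Among ligands, the ratio of Wnt7b to Wnt7a was higher by 1.67 and that of Wnt5a to Wnt5b by 0.69, while that of Wnt9a to Wnt9b was lower by 0.10. The ratio of Lgr4 to Lgr5 was higher by 1.63. For each of these pairs other than Wnt9a and Wnt9b the 3 P4 arrays lay above the 3 oil arrays. The exact two-sided permutation p was 0.1 for each of those, the least possible with 3 arrays a group, and 0.164 after Benjamini-Hochberg adjustment over the 18 pairs compared, so no pair could pass. For Wnt9a and Wnt9b the exact p was 0.6, or 0.675 adjusted.

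Of the 9 genes for R-spondins, their LGR receptors and the ubiquitin ligases, 4 fell and 0 rose in limma (44.4% called, beside 13.1% of all genes, and 6.96% of all genes lower). Those were Rspo1, Rspo3, Lgr5 and Rnf43. Rspo3, a secreted amplifier of Wnt signals, read 2909.9, 3049 and 2713 on the oil arrays and 1480.02, 2048 and 1692 on the P4 arrays. Each P4 array was below the lowest oil array, with a difference of -0.74 ± 0.12 (limma adjusted p 0.00762). Rspo1 read 554, 515 and 553 after oil and 393, 427 and 354 after P4 (-0.45 ± 0.09, limma adjusted p 0.0174), again with no overlap. Rspo2, at 199.9 and 196 on average, had a difference of -0.03 (95% interval -0.22 to 0.17), and Rspo4, at 33.6 and 32.9, one of -0.02.

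Lgr5, an R-spondin receptor that marks stem and progenitor cells in several epithelia and is itself a common target of beta-catenin, read 486, 506 and 425 after oil and 276, 121 and 157 after P4. The P4 arrays differed among themselves by more than the oil arrays did, and all were below them (-1.36 ± 0.25, limma adjusted p 0.0119). Lgr4, the broadly expressed relative, had 867 ± 15.7 after oil and 1057 ± 163 after P4, a difference of 0.27 ± 0.11 that did not pass (limma adjusted p 0.162). With scaling to hybridisation controls it did, at 0.0466. In the mean of the Lgr4 probe sets the difference was 0.05 (limma adjusted p 0.765), and the other probe set gave -0.16. Lgr6 had -0.11 ± 0.13. Rnf43, the ligase that removes frizzled receptors, read 267, 259 and 322 after oil and 196, 148 and 132 after P4 (-0.78 ± 0.15, limma adjusted p 0.0138). Its relative Znrf3 read 738, 735 and 742 after oil and 631, 614 and 599.9 after P4. The groups were far apart for their spread, yet the difference of -0.26 ± 0.07 had an adjusted p of 0.0508 in limma, just outside the threshold, and 0.0406 with the block. The limma adjusted p was 0.328 with scaling to hybridisation controls and 0.514 in the mean of the Znrf3 probe sets. The other Znrf3 probe set gave 0.09. Axin2, a scaffold of beta-catenin breakdown whose transcript is often read as a measure of pathway output, read 1148, 1065 and 1084 after oil and 972, 691 and 662 after P4. All P4 arrays were below the oil arrays, with a difference of -0.52 ± 0.14 and a limma adjusted p of 0.0518 (0.0114 with the block). With P4 replicate 1 left out it passed, at -0.69 and 0.00403. The limma adjusted p was 0.105 with scaling to hybridisation controls and 0.233 in the mean of the Axin2 probe sets (-0.34).

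None of the 10 antagonists passed in limma, and 2 were lower at an unadjusted p under 0.05, which 14.7% of all genes were (26.7% in either direction, 11.9% higher). These were Wif1 and Dkk2. Wif1, a secreted protein that binds Wnt ligands, read 296, 204 and 1085 after oil and 71.4, 113 and 193 after P4. The groups do not overlap, with the lowest oil array (204) just above the highest P4 array (193). Oil replicate 3 stands far above the other oil arrays. The difference of -1.67 ± 0.57 had a limma adjusted p of 0.102, or 0.00498 with the block. With oil replicate 3 left out it was -0.98. Dkk2, which binds the LRP co-receptors, read 408, 422 and 616 after oil and 204, 336 and 359 after P4 (-0.67 ± 0.23, limma adjusted p 0.101; 0.00864 with the block). Sfrp2, a decoy receptor, had 3177 ± 416 after oil and 3412 ± 185 after P4, a difference of 0.11 with a 95% interval from -0.13 to 0.35. Frzb and Sfrp4 varied most between arrays among the other antagonists, with intervals of the difference from -0.91 to 0.84 and from -0.70 to 1.18. The other antagonists, Dkk1, Dkk3, Dkk4, Sfrp1 and Sfrp5, had differences from -0.23 to 0.09.

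With the replicate number as a block 20 of the 53 genes passed, 3 higher and 17 lower, beside 20.9% of all genes (9.27% higher and 11.6% lower). The 10 genes added were Fzd2, on the higher side, and Axin2, Dkk2, Fzd4, Fzd7, Porcn, Wif1, Wnt16, Wnt2 and Znrf3. Scaling to hybridisation controls, 18 control probe sets for the hybridisation step, shifted the median difference over all genes by 0.11. It gave 9 calls among the 53 genes, 3 higher and 6 lower, with Lgr4 added and Wls (limma adjusted p 0.0644) and Rspo1 (0.0889) lost. None of the 10 genes added by the block passed with that scaling (limma adjusted p from 0.094 for Fzd2 to 0.328 for Znrf3). That scaling was fitted without the block, where these 10 genes had not passed either, so it does not test the blocked calls. Over all genes the same scaling gave 13.6%, with 10% higher and 3.52% lower (1826 and 640 genes in place of 1109 and 1266). Without oil replicate 2 the count among the 53 was 6, beside 5.46% of all genes (2.67% higher and 2.8% lower). Without both arrays numbered 2 it was 2, namely Wnt7a and Fzd1, beside 0.951% (0.55% higher and 0.401% lower). Wnt7a, Wnt5b, Fzd1, Fzd6 and Rspo3 passed with any single array left out. Lgr5 missed the threshold without oil replicate 2 (limma adjusted p 0.0592) and Rnf43 without P4 replicate 2 (0.0557). Wls missed it with oil replicate 1, with oil replicate 2 or with P4 replicate 2 left out (up to 0.0702). Fzd10 missed it with oil replicate 2, with oil replicate 3 or with P4 replicate 3 left out (up to 0.0793), and Rspo1 with any 1 oil array left out (up to 0.0752).

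**Figure D3:**
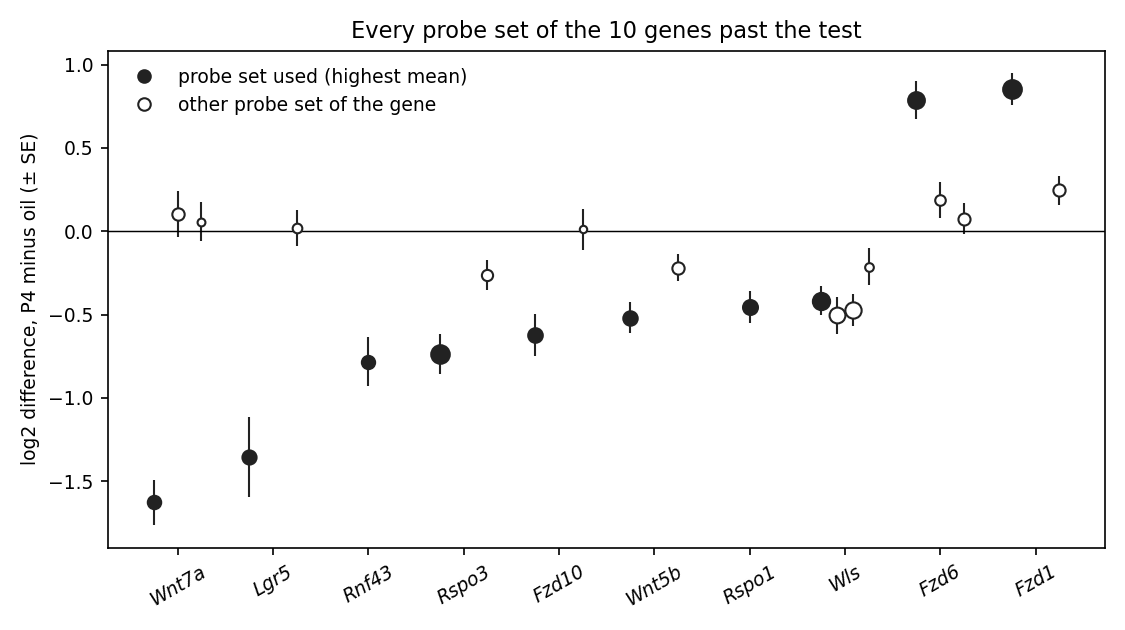
log2 difference of P4 minus oil (points, ± SE) for every probe set of the 10 genes past the test, with the probe set used for the gene filled and the others open, and larger points for higher mean intensity. For Wls 3 probe sets lie close together near -0.4 to -0.5, while the open points of Wnt7a, Lgr5 and Fzd10 lie near 0.

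Several probe sets measured the same gene for 32 of the 53. Over all 101 probe sets of these genes 12 passed, 2 higher and 10 lower, and 10.1% of the 34945 named probe sets passed. No gene had a second probe set that passed, or had an unadjusted p under 0.05, in the opposite direction. Agreement was limited for Wnt7a, whose other probe sets gave 0.10 and 0.06. The first of these read 125, 155 and 144 after oil and 127, 153 and 183 after P4. Those P4 values are above the 112, 84.6 and 128 of the probe set used, array by array. Agreement was also limited for Lgr5, with 0.02 from a probe set at intensities of 38 to 52.1, and for Fzd10, with 0.01. The Fzd6 probe sets besides the one used gave 0.19 and 0.08 and that of Fzd1 gave 0.25. Those of Rspo3 and Wnt5b gave -0.26 and -0.22. In the mean of all probe sets of a gene the differences were smaller: -0.49 for Wnt7a (limma adjusted p 0.0208), -0.67 for Lgr5 (0.034), 0.35 for Fzd6 (0.0264) and 0.55 for Fzd1 (0.00412), all still past the threshold, and -0.31 for Fzd10 (0.132), which was not.

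Among other genes of the pathway 6 of 63 measured passed (9.52%, beside 13.1% of all genes), 1 higher and 5 lower. Tnfrsf19, a receptor often used as a beta-catenin target, read 922, 922 and 1068 after oil and 565, 559 and 603 after P4 (-0.73 ± 0.09, limma adjusted p 0.00248). Dact2, an inhibitor that binds dishevelled, fell by 0.71 on the log2 scale (SE 0.13, limma adjusted p 0.0118). It did not pass in the mean of its probe sets (0.0577). Its relative Dact1 rose by 0.38 (SE 0.09, limma adjusted p 0.0311, and up to 0.123 with 1 array left out). Bcl9, a co-activator of beta-catenin (-0.44 ± 0.11), Tcf7l2, a TCF factor (-0.37 ± 0.10), and Ccnd1, a cyclin of the cell cycle (-0.31 ± 0.08), also fell. Those 3 did not pass with scaling to hybridisation controls (limma adjusted p 0.0795, 0.15 and 0.211). Beta-catenin itself, Ctnnb1, had a difference of -0.02 ± 0.06. Myc, another common target, read 467, 484 and 550 after oil and 584, 877 and 977 after P4, a difference of 0.65 ± 0.18 in the opposite direction to Tnfrsf19 and Ccnd1, at a limma adjusted p of 0.0518 (0.00721 with the block and 0.0292 with that scaling). None of the 12 extracellular or 9 planar polarity genes passed in limma. In each group 3 had an unadjusted p under 0.05 (25% and 33.3%), near the 26.7% of all genes. Tnfrsf19 passed with any 1 array left out, and each of the other 5 lost its call without at least 1 array. The counts were 5 higher and 9 lower with the block, beside 9.27% and 11.6% of all genes. They were 4 and 2 with scaling to hybridisation controls, beside 10% and 3.52%. With quantile normalization they were 2 and 4, beside 1140 and 1199 of the 18193 genes. Without oil replicate 2 only Tnfrsf19 was left, beside 5.46% of all genes. The count was 2 without oil replicate 1, beside 1173 of the 18193 genes. It was 3 without oil replicate 3 (beside 1763) or P4 replicate 2 (1409), 4 without P4 replicate 3 (1686) and 9 without P4 replicate 1 (2311).

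**Figure D4:**
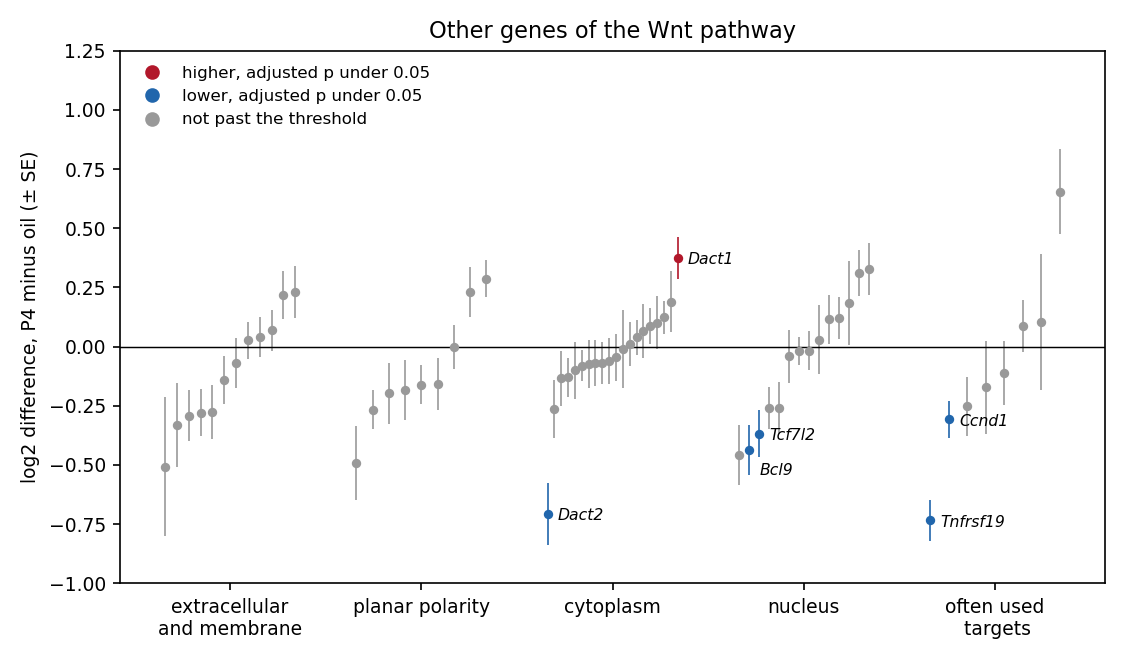
log2 difference of P4 minus oil (points, ± SE) for 63 other genes of the Wnt pathway in 5 groups, with those past the threshold coloured and named. Most points lie within 0.5 of 0, Tnfrsf19 and Dact2 lie lowest, and the highest, grey point is Myc at 0.65.

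The arrays were alike in median intensity and correlation, though not in every marker, and carried the markers of uterus. Median intensities ran from 117 to 123 and correlations of log2 values from 0.972 to 0.992. Markers of epithelium, stroma and smooth muscle were bright, such as Krt18, Dcn and Acta2. A mean intensity under 100, not told from background here, was found for 4 markers. Those were Prss28 and Spink1 of glands, Cd3e of leukocytes and Foxj1 of oviduct. Of 43 markers measured, 1 rose and 3 fell (9.3%, beside 13.1% of all genes). Of 8 epithelial markers Cldn3 rose and 0 fell, and their median difference was -0.35. With the replicate block 4 of the 8 fell: Krt18 (-0.62, limma adjusted p 0.0313), Krt19 (-0.34, 0.0147), Epcam (-0.40, 0.0468) and Elf3 (-0.65, 0.00217). In the same fit Cldn3 rose (1.21, limma adjusted p 0.000405), and Krt8 (-0.36), Cdh1 (-0.05) and Cldn4 (0.31) did not pass. With the block 14 of the 43 markers passed, 4 higher and 10 lower, beside 20.9% of all genes (9.27% higher and 11.6% lower). The epithelial markers had a summed intensity of 15690 to 17365 after oil and 12135 to 18007 after P4. The lowest sum was that of P4 replicate 2, which also had the lowest Wnt7a and Lgr5. Both genes kept their calls without that array, which does not test the share of epithelium on the other arrays. The sums include Cldn3, which read 1971, 1982 and 1657 after oil and 5088, 3829 and 4212 after P4. Of 6 stromal markers Lum fell (summed 37140 to 41988 after oil, 32531 to 41377 after P4), and of 5 endothelial markers Tek fell (4509 to 4979, and 4029 to 4381). The 5 gland markers (697 to 1724, and 749 to 1368) and the 6 of smooth muscle (34658 to 34774, and 31622 to 37449) held no call. Nor did the 6 of leukocytes, with sums of 1136 to 8334 after oil and 900.2 to 11517 after P4, and the 2 measured of fat, with 704 to 1405 and 155 to 743. The fat markers had large differences all the same, Adipoq -1.38 (limma adjusted p 0.0674) and Fabp4 -1.62 (0.0835), and both fell with the block (0.00278 and 0.0021). Inha, of 3 ovarian markers measured (383 to 392, and 343 to 393), fell, and the 2 oviduct markers (232 to 292, and 203 to 315) held no call. The highest leukocyte sums were those of oil replicate 3, which also had the highest Wif1, and of P4 replicates 2 and 3. The part of any of these in the differences of Wnt genes was not tested.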

How the data were processed

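The labels describe biotin-labelled cRNA from total RNA, hybridised by the standard Affymetrix protocol. The authors deposited intensity values on a linear scale, a single value for each probe set on each array. Their summary and scaling method: not given in the sources used here. No 2 arrays shared more than 18 identical values. Intensities were turned into log2(intensity + 16). Genes were named by the platform annotation, in which 34945 probe sets have 1 symbol, 932 have several and 9160 are unnamed here; all 53 Wnt genes matched a RefSeq gene of assembly GRCm38.p6 by gene ID. The P4 effect was fitted with limma 3.58.1 (R 4.3.3), using lmFit and a trended eBayes, over 18193 genes and 6 arrays, and p-values were adjusted by Benjamini-Hochberg. Whether each array is a separate animal is not in the labels, so the p-values reflect only how far these samples spread, and that spread may be technical.

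The genes, lists and tests were chosen with earlier results of these data known. Every Wnt gene could be named: those past the threshold or at an unadjusted p under 0.05 with fuller values, the others by group means or range, and other pathway genes where they passed. Myc, Ctnnb1 and the markers named were chosen after their values were seen. The replicate numbers occur in both groups, and same-numbered arrays deviated together (r of 0.53, 0.12 and 0.64 after group means were removed, all above 0.1), which meets the limit set for pairing. The reported calls come from the fit without the block, and the blocked fit is an alternative given beside them where it changed a call. The pairing has no label behind it: oil replicate 2 correlated more with P4 replicate 1 (0.29). Alternatives were other normalizations, pseudocounts, probe set choices, a filter on dim genes, plain moderation, the block and arrays left out. On simulated data over 18193 genes, 35.6% of genes changed by 0.5 log2 were recovered and 83.5% of those changed by 1. Upstream sequences are RefSeq's. Figures were drawn with matplotlib 3.10.9.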

Additional observations from a re-analysis of the deposited data

How the results depend on the processing

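With 3 arrays a group, changes near 0.5 log2 are often missed, as on simulated data, so genes just outside the threshold are not shown to be unchanged. With the replicate block 3798 genes passed in limma in place of 2375, 20 in place of 10 of the 53 Wnt genes and 14 in place of 6 of the other pathway genes, and the block ended no call of a named gene. Leaving out each array in turn gave 994 to 2311 genes, 6 to 13 Wnt genes and 1 to 9 other pathway genes. Oil replicate 2 was the array left out in the lowest of each. The counts over all genes were 1173 with oil replicate 1 left out and 1409 with P4 replicate 2 left out. Without both arrays numbered 2 there were 173, 2 and 0, the last with 7 at an unadjusted limma p under 0.05. The cause was not tested, apart from fewer arrays. Quantile normalization, scaling to hybridisation controls, pseudocounts of 1 and 50, leaving out the dimmest 30% of genes, the mean of all probe sets, leaving out cross-hybridising probe sets and moderation without trend kept each of the 3 counts within 1.5 times. Over 27 named genes and 16 alternatives 0 of 431 differences changed sign, 57 lost a call and 19 gained one. The 27 do not cover every gene given a difference above, and some of the others did change sign. Wnt4 went from 0.09 to -0.02 without both arrays numbered 2, and Lgr6 from -0.11 to 0.01 with scaling to hybridisation controls.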
